A study of Mus musculus with 16 samples.

Results

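Collagens and laminins are the main proteins of the extracellular matrix that surrounds epithelial cells, and their 55 genes, 44 for collagen chains and 11 for laminin chains, are described here in mouse prostate organoids by whether open chromatin was called near them. Members are the protein-coding genes of the mouse genome mm10 whose symbols have the form Col, a number, a and a number, or Lama, Lamb or Lamc and a number. The rule reads symbols only. A region is a stretch of genome where peaks of the 16 libraries overlapped, it belongs to the nearest protein-coding gene body within 100 kb, and it counts as called in a library whose peak list covers it. Of 80352 regions called in at least 2 libraries, 338 (0.421%) belonged to members. They fell to 49 of the 55 genes, and 42 genes had the 2 or more regions needed for a test, out of 11209 such genes in all.

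The assay was ATAC-seq, in which a transposase cuts and tags accessible DNA. Organoids (cultures of prostate epithelium) were either normal (Control) or mutant for SPOP (SPOPmut), the substrate-binding subunit of a cullin ubiquitin ligase that is often mutated in prostate cancer. Each genotype was kept for 24 h with 10 nM dihydrotestosterone (DHT), an androgen, or with ethanol (EtOH), its solvent, in organoid medium without mEGF. That gave 4 groups of 4 libraries, and every one of them also carries the label sgNT. The SPOP allele and the way it is driven are not given in the sources used here, nor is the origin of the 4 libraries of a group (separate cultures, separate mice or repeats of one), so p-values reflect spread between libraries that may be technical.

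A basement membrane is built from a sheet of laminin trimers (an alpha, a beta and a gamma chain) and a sheet of collagen IV, joined by linker proteins and gripped by integrins. In the prostate it lies under the basal cells, which anchor to it through hemidesmosomes. Fibrillar collagens and the beaded filaments of collagen VI are known mainly as products of connective tissue cells.

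Lists held 57245 to 69644 peaks per library, and the members took between 0.386% and 0.428% of a library's called regions. The ranges of the groups overlapped, except that the 4 SPOPmut EtOH libraries (0.406% to 0.428%) all lay above the 4 SPOPmut DHT libraries (0.398% to 0.405%). The files hold no read counts, so depth is unknown and no counting interval can be given. Of all genes tested 19.4% rose in SPOPmut and 12.1% fell. Of the luminal marker list 5 of 6 tested genes rose in SPOPmut (Cd24a, Krt19, Foxa1, Krt8 and Krt18), while Pbsn had no region. The other tested gene, Hoxb13, was lower in SPOPmut and did not pass (-1, exact permutation test, adjusted p = 0.0792). Krt8 and Krt18 are on chromosome 15, whose share of called regions was 17.6% higher in SPOPmut than in Control. Foxa1 is on chromosome 12 (3.46%), Cd24a on chromosome 10 (-8.45%) and Krt19 on chromosome 11 (-4.92%). The part of the chromosome in the marker results was not tested. Luminal sums ran from 23 to 28 called regions in Control with EtOH, 27 to 29 in Control with DHT, 35 to 38 in SPOPmut with EtOH and 35 to 40 in SPOPmut with DHT. Among basal markers 2 of 7 rose in SPOPmut (Itga6 and Krt14), and Trp63 fell in SPOPmut and rose with DHT. Itga6 is on chromosome 2 (19.9%) and Krt14 on chromosome 11 (-4.92%). Basal sums were 45 to 50, 51 to 55, 47 to 53 and 52 to 53 in the same order, so the Control groups did not overlap. Endothelial markers fell in 3 of 5 tested genes, and their summed called regions ran from 40 to 43 in Control with EtOH, 36 to 40 in Control with DHT, 27 to 34 in SPOPmut with EtOH and 23 to 32 in SPOPmut with DHT. Of the stromal list 2 of 8 rose and 2 fell, with sums of 18 to 26, 19 to 26, 19 to 23 and 15 to 21 in the same order, and Fap and Lum had no region. In the immune list 1 of 4 rose (Ptprc), with sums of 9 to 11, 6 to 9, 10 to 12 and 11 to 14, and Adgre1 had none.

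Genotype calls went in both directions. In SPOPmut 9 of the 42 tested members rose (21.4%, against 19.4% of all genes tested) and 7 fell (16.7%, against 12.1%), by an exact permutation test of called regions per library with Benjamini-Hochberg adjusted p under 0.05, and 26 did not pass. The shares lie near those of all genes, so the counts alone do not set the family apart, and the median difference was 0 for members and 0 for all genes. Risers were the laminin genes Lama5, Lamc3, Lama2 and Lamc1, the collagen IV genes Col4a1 and Col4a2, and Col7a1, Col14a1 and Col2a1. Those that fell were the collagen VI genes Col6a1, Col6a2 and Col6a3, the multiplexins Col15a1 and Col18a1, and Col16a1 and Lama4. When counts were taken as shares of each library's regions 8 rose and 13 fell (against 22.5% and 21.4% of all genes), and after subtracting each library's call rate on the gene's chromosome 9 rose and 11 fell (against 24% and 25.1%). Over all genes 61.7% of the calls were rises in the main test, 51.2% with shares and 48.9% with the chromosome correction. In these bulk samples a change in the mix of cells and a change of chromatin within a cell type cannot be told apart.

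**Figure D1:**
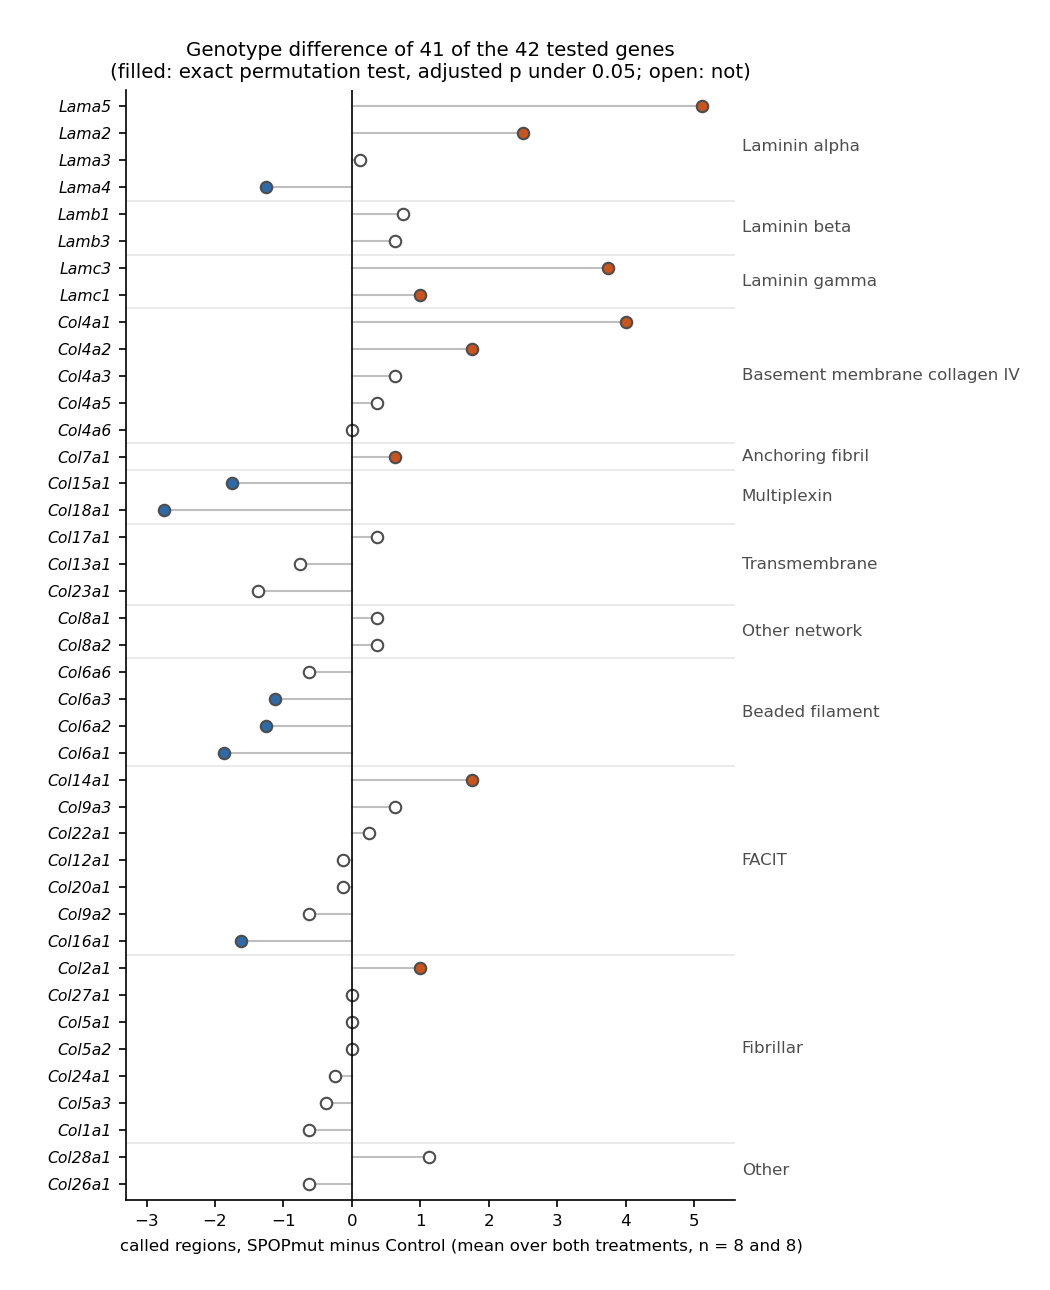
Difference in called regions between SPOPmut and Control for 41 of the 42 tested genes (x axis, called regions, mean over both treatments), grouped by role. Filled points passed the exact permutation test (9 higher, 7 lower) and open points did not. Laminin and collagen IV genes lie mostly to the right of 0, and all 4 tested collagen VI genes lie to the left.

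Promoters are shown for 4 members because they cover the 3 behaviours described below: Lama5 gained regions while its promoter was called throughout, the promoters of Col16a1 and Col6a2 lost rank or calls, and that of Col17a1 was called in every library. RefSeq promoters (GRCm38.p6, the assembly of mm10) matched 40 of the 55 members. Each line gives the 200 bases from 250 to 51 bases before the start of the gene, 5′ to 3′ on the gene's own strand. Capitals mark matches on either strand to 6 motifs: the AP-1 site TGANTCA, the androgen receptor motif AGAACA, the forkhead site TGTTTAC, the NFI motif TTGGC, the GC box GGGCGG and the CCAAT box CCAAT. NFI and CCAAT matches can overlap, since one strand of the CCAAT box reads ATTGG. The last 2 motifs were added after the data were seen.
Lama5, chr2:180225910-180226109, minus strand: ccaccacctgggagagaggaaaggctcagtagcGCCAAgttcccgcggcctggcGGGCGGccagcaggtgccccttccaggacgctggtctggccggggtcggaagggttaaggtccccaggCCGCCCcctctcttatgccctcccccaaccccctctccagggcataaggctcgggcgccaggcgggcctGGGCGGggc
Col16a1, chr4:130047590-130047789, plus strand: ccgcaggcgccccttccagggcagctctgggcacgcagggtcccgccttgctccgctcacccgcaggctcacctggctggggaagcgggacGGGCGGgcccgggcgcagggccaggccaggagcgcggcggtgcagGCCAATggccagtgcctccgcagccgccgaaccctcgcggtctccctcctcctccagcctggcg
Col6a2, chr10:76623681-76623880, minus strand: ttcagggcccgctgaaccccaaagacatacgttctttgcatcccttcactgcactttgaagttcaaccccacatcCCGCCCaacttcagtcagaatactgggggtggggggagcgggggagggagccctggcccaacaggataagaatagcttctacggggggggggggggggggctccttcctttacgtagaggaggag
Col17a1, chr19:47692093-47692292, minus strand: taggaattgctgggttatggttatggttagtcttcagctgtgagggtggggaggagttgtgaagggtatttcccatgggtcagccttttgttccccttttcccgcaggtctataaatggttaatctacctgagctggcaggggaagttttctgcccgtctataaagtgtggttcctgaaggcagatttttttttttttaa

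The Lama5 window held 3 GC boxes and 1 NFI motif. In the Col16a1 window 1 GC box stood beside 1 NFI motif that overlapped 1 CCAAT box. The Col6a2 window held 1 GC box, and none of the 6 letter strings is in the Col17a1 window. Among all 21262 promoters of protein-coding genes in the table, windows of the same length held the GC box in 32.0%, the CCAAT box in 29.8%, the NFI motif in 36.1%, the androgen receptor motif in 11.6%, AP-1 in 5.18% and the forkhead site in 2.12%. Of the 44 promoter entries of members, some genes having more than 1, 20 held a GC box, 11 a CCAAT box, 18 an NFI motif, 3 an androgen receptor motif, 1 an AP-1 site and 1 a forkhead site. Both single matches are in the Col6a1 window, which no region covered. A match describes letters only. Of the 40 matched members 14 had a region over this window, and for 12 of them it was called in all 16 libraries.

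Laminin alpha chains carry the globular domains that integrins bind. Lama5 encodes the alpha 5 chain, the broadly used alpha chain of adult epithelial basement membranes. It had 5 called regions in each of the 4 Control EtOH libraries and 6 in each of the 4 Control DHT libraries. SPOPmut with EtOH had 11, 12, 12 and 10, and SPOPmut with DHT had 10 in each. No Control library reached the lowest SPOPmut library. The rise was 5.13 regions (exact permutation test, adjusted p = 0.00325, the smallest value this test reached). Of its 12 regions 4 were called in all 8 SPOPmut libraries and in no Control library. The 3 with the highest ranks were chr2:180229979-180231027, 4120 bp before the start, chr2:180219710-180220712, 5147 bp inside the gene, and chr2:180204944-180206350, 19509 bp inside it. The region over the printed promoter, chr2:180223877-180226549, was called in all 16 libraries. Its median percentile of −log10 p within a list, a rank that is the authors' value re-expressed, was 82.1 in Control EtOH, 80.6 in Control DHT, 94.9 in SPOPmut EtOH and 94.6 in SPOPmut DHT.

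Lama2, the alpha 2 chain known from muscle and peripheral nerve, rose by 2.5 (exact permutation test, adjusted p = 0.0170). Control EtOH had 6, 5, 5 and 5 called regions, Control DHT 6, 5, 7 and 5, SPOPmut EtOH 7, 7, 6 and 5, and SPOPmut DHT 10, 9, 10 and 10. The SPOPmut DHT libraries stood above the other 12, and the remaining groups overlapped. The region chr10:26989223-26989692, near the far end of the gene, was called in all 8 SPOPmut libraries and no Control library. Next to it chr10:26984052-26984494 and chr10:26985039-26985977 were called in the 4 SPOPmut DHT libraries and in none of the other 12 (regions picked after their values were seen). Within the upper 75% of each peak list the rise of Lama2 was 0.875 and did not pass (exact permutation test, adjusted p = 0.197).

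Lama4 encodes the alpha 4 chain, best known from blood vessel walls. Its 2 regions were both called in the 4 Control EtOH libraries, the Control DHT libraries had 0, 0, 1 and 1, and no SPOPmut library had either. It fell by 1.25 (exact permutation test, adjusted p = 0.0237), and the endothelial markers given above fell with it, whose part was not tested. The same holds for the multiplexins below. In the upper 75% of the lists the call was lost (-0.75, exact permutation test, adjusted p = 0.0765). Lama3, the alpha 3 chain of hemidesmosomal laminin, had 18 to 22 of its 25 regions called in every library and a difference of 0.125 (exact permutation test, adjusted p = 1). Under this steady total 1 region was called in all SPOPmut and no Control libraries, chr18:12513147-12513509, and 1 in all Control and no SPOPmut libraries, chr18:12499483-12500020. Lama1 had a single region, called in all 16 libraries.

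Of the gamma chains, which complete the trimer, Lamc3 rose by 3.75 (exact permutation test, adjusted p = 0.00325). It encodes the gamma 3 chain, a minor chain described in retina and brain. Control EtOH had 2, 1, 2 and 2 of its 7 regions, Control DHT 1, 1, 2 and 2, SPOPmut EtOH 7, 6, 7 and 5 and SPOPmut DHT 5, 3, 5 and 5. No SPOPmut library overlapped a Control library. In the upper 75% of each list by rank the rise was 1.25 (exact permutation test, adjusted p = 0.0596). Lamc1, the gamma 1 chain shared by most laminins, had 9, 9, 10 and 10 regions in Control EtOH, 9, 10, 9 and 9 in Control DHT, 10 in each SPOPmut EtOH library and 11, 10, 11 and 11 in SPOPmut DHT. It rose by 1.00 (exact permutation test, adjusted p = 0.0419), with groups that touch at 10. This call ended under several settings: adjusted p by the same exact test was 0.104 with shares, 0.329 with the chromosome correction, 0.0777 in the upper 75% of each list, 0.0589 with regions called in any library and 0.0534 when genes with 1 region were tested too. Leaving out replicate 1, 3 or 4 of Control DHT or replicate 1, 3 or 4 of SPOPmut DHT gave adjusted p between 0.0548 and 0.0559. Its region chr1:153224244-153224768 was called in all SPOPmut and no Control libraries.

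Lamb3, the beta chain of hemidesmosomal laminin, had 3 called regions in every Control library, 5, 3, 4 and 4 in SPOPmut EtOH and 3, 3, 4 and 3 in SPOPmut DHT (difference 0.625, exact permutation test, adjusted p = 0.162). It passed with limma (adjusted p = 0.0406) and without SPOPmut EtOH replicate 2 (exact permutation test, adjusted p = 0.0437). Regions over the Lamb3 promoter windows ranked high, with median percentiles of 91.7 to 96.5 across the groups. Lamb1, the widely used beta 1 chain, had 5 to 9 called regions in Control and 8 or 9 in SPOPmut (difference 0.75, exact permutation test, adjusted p = 0.413). It passed when the lists were cut to equal length, to their upper 75%, or when regions had to lie within 25 kb, with rises of 1.63, 2.88 and 1.25. Of its regions chr12:31184955-31185570 was called in all Control and no SPOPmut libraries. Lamb2 had 1 region, called in all 16 libraries.

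Summed over the 11 laminin genes, called regions numbered 64 to 72 in Control EtOH, 64 to 70 in Control DHT, 76 to 84 in SPOPmut EtOH and 76 to 84 in SPOPmut DHT. The genotypes did not overlap, and as a share of a library's regions laminins took between 0.110% and 0.121% in Control libraries and between 0.130% and 0.139% in SPOPmut libraries. Without Lama5 and Lamc3, picked after their values were seen, the laminin sums were 58 to 65, 57 to 62, 58 to 66 and 63 to 69 in the same order, so the genotypes overlapped with EtOH and not with DHT. The counts of the 44 collagen genes overlapped in every group, with 154 to 184, 147 to 178, 156 to 177 and 147 to 174 called regions. As a share of a library's regions collagens took 0.279% to 0.302%, 0.269% to 0.297%, 0.273% to 0.290% and 0.264% to 0.268%, and on this scale the SPOPmut DHT libraries lay below the other 12. These sums describe the genes and were not tested.

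**Figure D2:**
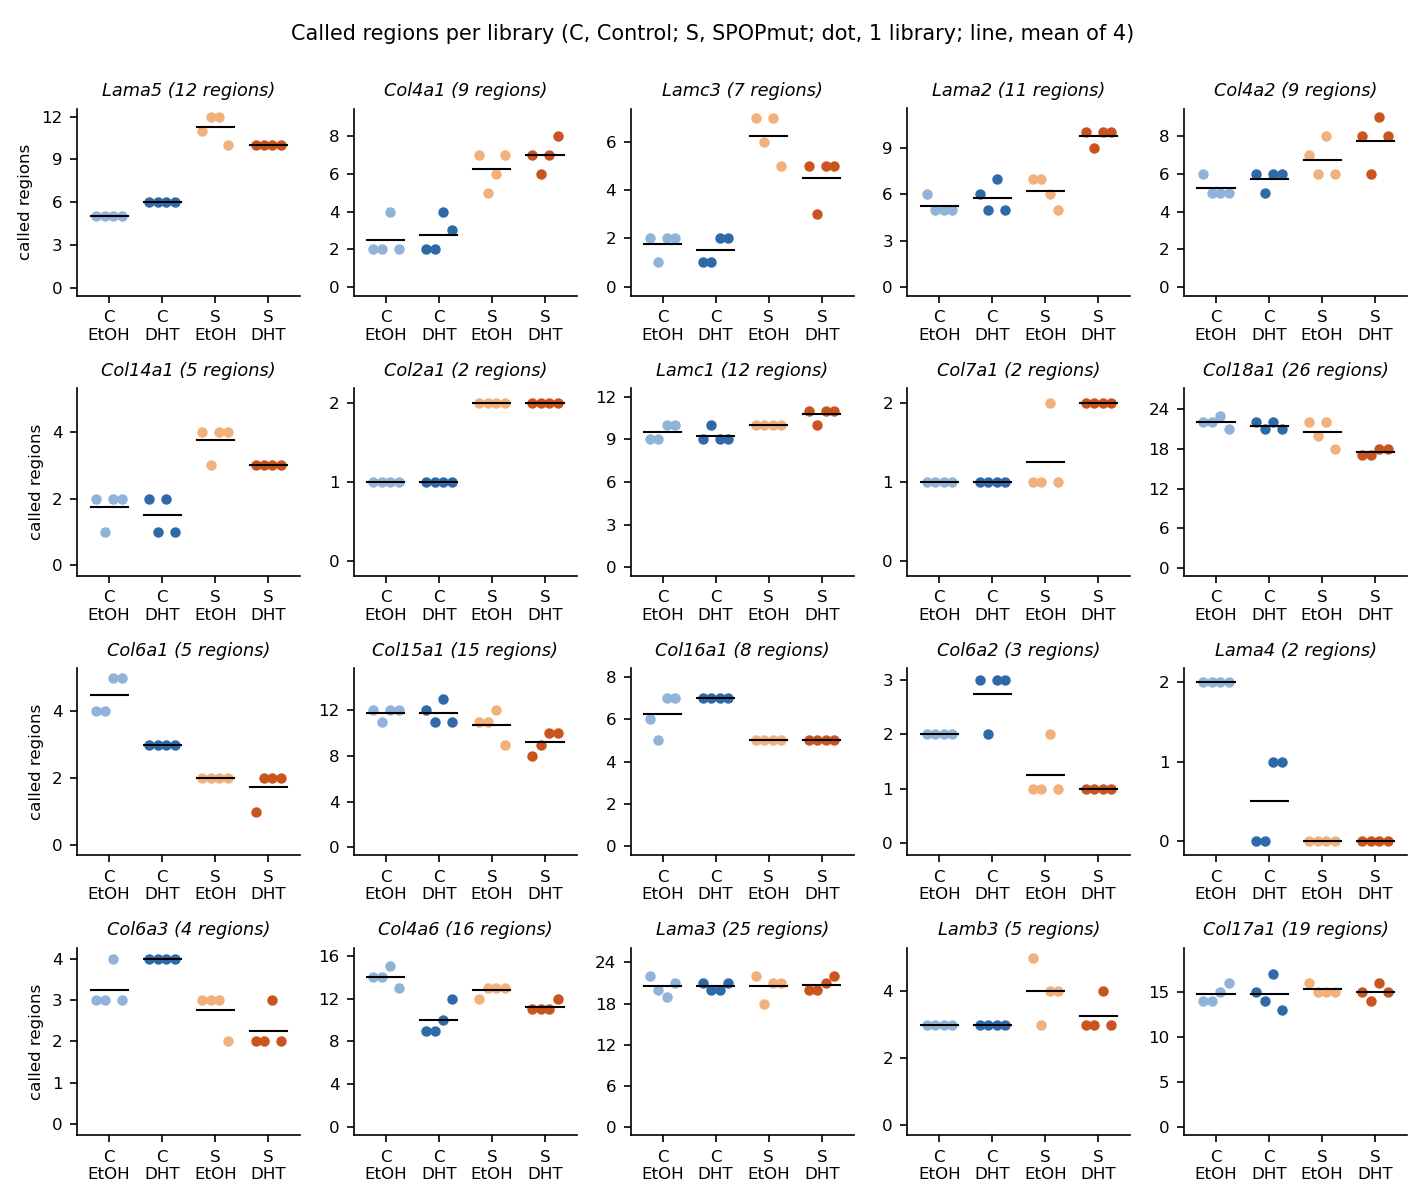
Called regions per library (y axis) in the 4 groups for the 16 genes with a genotype call, and for Col4a6, Lama3, Lamb3 and Col17a1. Each dot is 1 library and each line the mean of 4; the y axis runs to the number of regions the gene has. Lama5, Col4a1, Lamc3 and Col2a1 show no overlap between genotypes, while Lama3 stays between 18 and 22 throughout.

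Collagen IV forms the second network of the basement membrane. Col4a1 and Col4a2 encode its most common trimer and are transcribed away from each other from a shared promoter. Col4a1 had 2, 2, 4 and 2 of its 9 regions called in Control EtOH, 2, 2, 4 and 3 in Control DHT, 7, 5, 6 and 7 in SPOPmut EtOH and 7, 6, 7 and 8 in SPOPmut DHT. Every SPOPmut library exceeded every Control library, and the rise was 4.00 (exact permutation test, adjusted p = 0.00325). Regions called in all SPOPmut and no Control libraries were chr8:11235362-11237608, chr8:11259840-11260252 and chr8:11221115-11221828, all inside the gene. Col4a2 had 6, 5, 5 and 5 called regions in Control EtOH, 6, 5, 6 and 6 in Control DHT, 7, 6, 8 and 6 in SPOPmut EtOH and 8, 6, 9 and 8 in SPOPmut DHT. It rose by 1.75 (exact permutation test, adjusted p = 0.0211), with groups that touch at 6. The region over the shared start, chr8:11312295-11314090, was called in all 16 libraries. Its median percentile was 3.01 in Control EtOH, 13.9 in Control DHT, 48.3 in SPOPmut EtOH and 50.5 in SPOPmut DHT, so it stood low in the Control lists and near the middle of the SPOPmut lists.

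Among the rarer collagen IV chains, Col4a3 (difference 0.625, exact permutation test, adjusted p = 0.198), Col4a5 (0.375, adjusted p = 0.380) and Col4a6 (0, adjusted p = 1) gave no genotype call. In the upper 75% of each list Col4a5 rose by 1.25 and Col4a6 by 1.13 (exact permutation test, adjusted p = 0.0101 and 0.0412). Col4a4 had 1 region, called in the 4 SPOPmut DHT libraries only. Collagen IV sums ran from 25 to 29 in Control EtOH, 19 to 26 in Control DHT, 29 to 33 in SPOPmut EtOH and 30 to 35 in SPOPmut DHT.

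Col7a1 encodes the collagen of anchoring fibrils, which tie the basement membrane to the tissue beneath. It had 1 called region in each Control library, 1, 1, 2 and 1 in SPOPmut EtOH and 2 in each SPOPmut DHT library. Its rise was 0.625 (exact permutation test, adjusted p = 0.0456), and without SPOPmut EtOH replicate 3 it was 0.5 and did not pass (exact permutation test, adjusted p = 0.0755). The call also ended with lists of equal length, with only the upper 75% of each list and when genes with 1 region were tested too (exact permutation test, adjusted p = 0.0724, 0.272 and 0.0580). Col17a1, the transmembrane collagen of hemidesmosomes, had 13 to 17 called regions in Control and 14 to 16 in SPOPmut (difference 0.375, exact permutation test, adjusted p = 0.896). Over its printed promoter the region was called in all 16 libraries with median percentiles of 76.6, 75.6, 82.7 and 77.6 in the 4 groups.

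Col18a1 and Col15a1, the multiplexins, lie in basement membranes of epithelia and vessels and carry an endostatin domain that can be cut off as a free fragment. Col18a1 had the most regions of any member, 26. It had 22, 22, 23 and 21 called in Control EtOH, 22, 21, 22 and 21 in Control DHT, 22, 20, 22 and 18 in SPOPmut EtOH and 17, 17, 18 and 18 in SPOPmut DHT. It fell by 2.75 (exact permutation test, adjusted p = 0.0197), and the genotypes overlapped with EtOH and not with DHT. With the chromosome correction it fell by 1.72 and did not pass (exact permutation test, adjusted p = 0.0558). The region over its promoter was called throughout with median percentiles of 82.1 to 89.9. Col15a1 had 12, 11, 12 and 12 called regions in Control EtOH, 12, 11, 13 and 11 in Control DHT, 11, 11, 12 and 9 in SPOPmut EtOH and 8, 9, 10 and 10 in SPOPmut DHT. It fell by 1.75 (exact permutation test, adjusted p = 0.0264), a call lost in the upper 75% of the lists (adjusted p = 0.156).

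Collagen VI forms beaded filaments between the basement membrane and fibrillar matrix. Of its 4 tested genes 3 fell and none rose (against 12.1% and 19.4% of all genes), and the summed called regions of its 6 genes were 11 to 13 in both Control groups, 6 to 9 in SPOPmut EtOH and 5 to 8 in SPOPmut DHT. Col6a1 had 4, 4, 5 and 5 called regions in Control EtOH, 3 in each Control DHT library, 2 in each SPOPmut EtOH library and 1, 2, 2 and 2 in SPOPmut DHT. It fell by 1.88 (exact permutation test, adjusted p = 0.00325), with no overlap between genotypes. All 5 of its regions lie outside the gene body and were assigned to Col6a1 as the nearest gene. The region chr10:76733143-76733889, 7099 bp before its start, was called in all 8 Control libraries and no SPOPmut library. A neighbour picked after its values were seen, chr10:76729883-76731026, remained called in 7 of 8 SPOPmut libraries, at median percentiles of 87.5 and 79.0 in the Control groups and 22.8 and 17.5 in the SPOPmut groups.

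Col6a2, which lies next to Col6a1, had 2 called regions in each Control EtOH library, 3, 2, 3 and 3 in Control DHT, 1, 1, 2 and 1 in SPOPmut EtOH and 1 in each SPOPmut DHT library. It fell by 1.25 (exact permutation test, adjusted p = 0.0102), and the groups touch at 2. The region over its start, chr10:76623197-76623700, was called in all 8 Control libraries, in 1 of 4 SPOPmut EtOH libraries and in 0 of 4 SPOPmut DHT libraries. This region covers only the gene-side end of the window printed above, without its GC box. A second Col6a2 promoter window, not printed, lies wholly inside the region. Col6a3 had 3, 3, 4 and 3 called regions in Control EtOH, 4 in each Control DHT library, 3, 3, 3 and 2 in SPOPmut EtOH and 2, 2, 3 and 2 in SPOPmut DHT. It fell by 1.13 (exact permutation test, adjusted p = 0.0302), with Control EtOH and SPOPmut EtOH overlapping. The call ended without Control DHT replicate 1, 2 or 4 (exact permutation test, adjusted p from just over 0.050 to 0.0506), and the fall was 0.5 within 25 kb and within 10 kb of the body, where it did not pass. Stromal markers, the list of cells that make most collagen VI, are given above and their part was not tested.

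**Figure D3:**
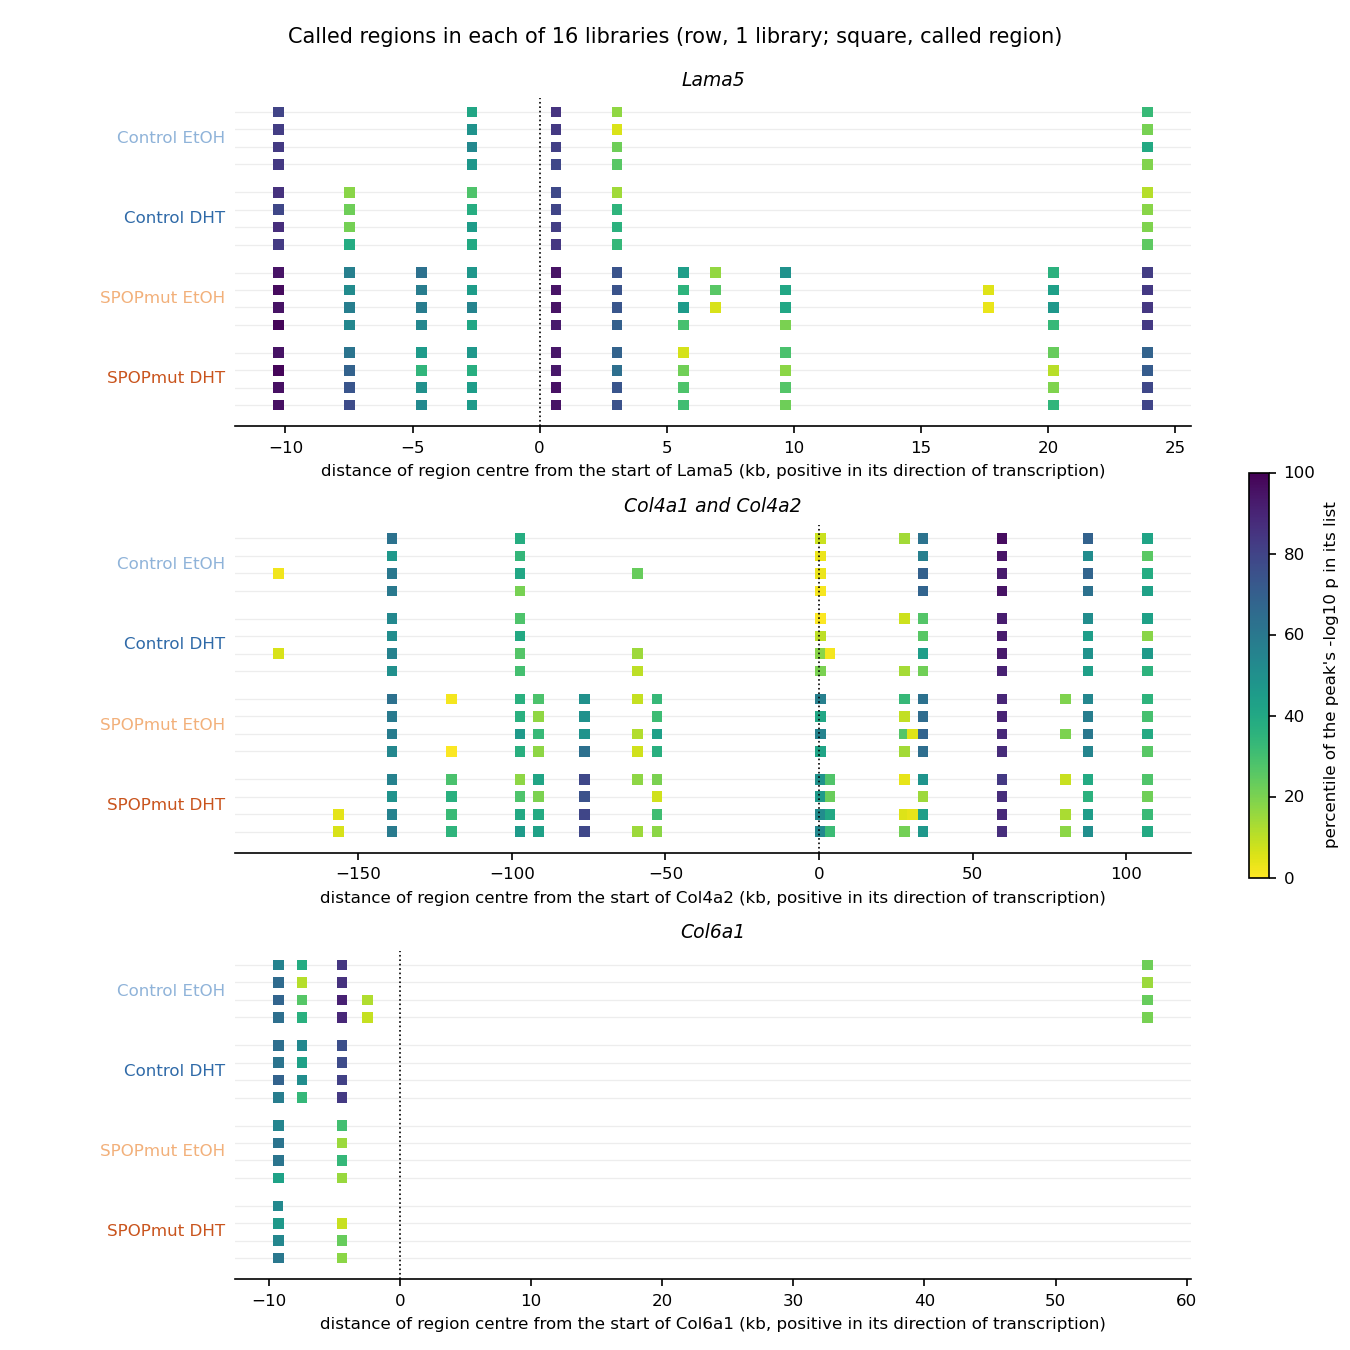
Regions of Lama5, of Col4a1 with Col4a2 and of Col6a1 by distance from a gene start (x axis, kb), 1 row per library. A square is a region called in that library and its colour the percentile of the peak's −log10 p within its own list. Columns of squares in SPOPmut rows alone are the 4 gained Lama5 regions and the 3 gained Col4a1 regions, and the gap beside Col6a1 is the region lost in all 8 SPOPmut libraries.

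Among collagens that bind to the surface of fibrils 1 of 7 tested genes rose and 1 fell (against 19.4% and 12.1% of all genes). Col14a1 had 2, 1, 2 and 2 called regions in Control EtOH, 2, 1, 2 and 1 in Control DHT, 4, 3, 4 and 4 in SPOPmut EtOH and 3 in each SPOPmut DHT library. It rose by 1.75 (exact permutation test, adjusted p = 0.00325) without overlap between genotypes. Col16a1 had 6, 5, 7 and 7 called regions in Control EtOH, 7 in each Control DHT library and 5 in each SPOPmut library. It fell by 1.63 (exact permutation test, adjusted p = 0.0102), and 1 Control library also had 5. The region over its printed promoter was called in all 16 libraries. Its median percentile was 74.2 in Control EtOH, 70.0 in Control DHT, 18.3 in SPOPmut EtOH and 6.84 in SPOPmut DHT.

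Fibrillar collagens form the cable-like fibres of connective tissue. Of their 7 tested genes 1 rose and 0 fell (against 19.4% and 12.1% of all genes). Col2a1, the cartilage collagen, had 1 called region in every Control library and 2 in every SPOPmut library (rise 1.00, exact permutation test, adjusted p = 0.00325). The added region, chr15:98017395-98018197, lies 13072 bp outside the gene body, and the call was lost when only the body and 10 kb either side counted (0.25, exact permutation test, adjusted p = 0.801). It was also lost in the upper 75% of the lists (0.5, adjusted p = 0.0765). Col1a1, a chain of the main collagen of bone and skin, had 4, 4, 4 and 3 called regions in Control EtOH, 4, 3, 3 and 3 in Control DHT, 3 in each SPOPmut EtOH library and 3, 2, 3 and 3 in SPOPmut DHT (difference -0.625, exact permutation test, adjusted p = 0.102). It passed when counts were taken as shares (exact permutation test, adjusted p = 0.0109) or corrected by chromosome (adjusted p = 0.0435), with limma (adjusted p = 0.0315) and without Control EtOH replicate 4 (exact permutation test, adjusted p = 0.0291). Col1a2 had no region, and Col3a1 had 1, called in 2 Control DHT libraries. Other members with none in at least 2 libraries were Col9a1, Col10a1, Col11a1, Col25a1 and Col6a5.

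Col28a1, 1 of the 5 members with the most regions (17), had 8 to 12 called in Control and 9 to 12 in SPOPmut (difference 1.13, exact permutation test, adjusted p = 0.192). It passed with the chromosome correction and without Control EtOH replicate 4 or Control DHT replicate 3 (exact permutation test, adjusted p = 0.0132, 0.00984 and 0.00969). Like Lama3 it gained 1 region, chr6:8182818-8183696, and lost 1, chr6:7949122-7949392, by the count of 8 libraries against none. Col8a1, a collagen of endothelial and corneal matrix, lost 2 in the same way, chr16:57752393-57752793 and chr16:57757314-57757757, with a gene difference of 0.375 (exact permutation test, adjusted p = 1).

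Region by region, 17 of the 338 member regions were called more often in SPOPmut (5.03%, against 3.76% of all regions) and 11 less often (3.25%, against 3.23%), by an exact stratified test with Benjamini-Hochberg adjusted p under 0.05. Regions called in 8 of 8 SPOPmut and 0 of 8 Control libraries numbered 12 (3.55%, against 2.23% of all regions), and the reverse held for 6 (1.78%, against 2.02%). Lama5 held 4 of the 12 and Col4a1 3. Member regions lay inside gene bodies in 74.9% of cases, compared with 58.4% of all regions assigned to a gene. They were called in all 16 libraries in 44.7%, against 50.1% of regions assigned to a gene and 48.9% of all regions. Their median width was 650.5 bp against 667 bp for all regions. No test of the members' shares against those of all regions was run. Gains did not outnumber losses under every setting: they were 15 and 15 with lists of equal length and 12 and 14 in the upper 75% of each list.

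Within one treatment, where 4 libraries against 4 cannot give an exact p below 0.0286, genes were counted by whether the groups overlapped. In EtOH 5 members lay wholly higher in SPOPmut than in Control (11.9%, against 13.1% of all genes), Lamc3, Lama5, Col4a1, Col14a1 and Col2a1, and 2 wholly lower (4.76%, against 8.72%), Lama4 and Col6a1. In DHT 7 lay wholly higher (16.7%, against 16%), the same 5 with Col7a1 and Lama2, and 6 wholly lower (14.3%, against 8.53%), Col6a3, Col15a1, Col16a1, Col6a2, Col6a1 and Col18a1.

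Some risers lie in neighbourhoods whose other regions also rose. Within 1 Mb of Lama5, regions of non-member genes numbered 60.8 ± 4.37 called in Control and 83.6 ± 5.24 in SPOPmut (mean ± SD, n = 8). Around Lamc3 they numbered 132 ± 5.78 and 168 ± 8.68, around Col14a1 34.0 ± 4.31 and 47.0 ± 4.41, and around Col2a1 91.5 ± 5.76 and 119 ± 6.14. These 4 genes are on chromosomes 2 and 15, which held 19.9% and 17.6% more of a library's called regions in SPOPmut than in Control. With the chromosome correction they still passed, with rises of 3.28, 2.67, 1.04 and 0.716. Around Col4a1 the neighbours went the other way, with 70.0 ± 3.63 called in Control and 64.5 ± 3.07 in SPOPmut, and around Lamc1 with 53.6 ± 4.66 and 45.1 ± 4.29. For Col6a1 the surrounding counts were 101 ± 6.45 and 98 ± 10.00. Lama4 fell together with its neighbourhood, 24.0 ± 1.07 in Control and 19.3 ± 1.98 in SPOPmut. Across the 42 tested genes, which share libraries and in part chromosomes, Pearson's r between the 2 differences was 0.49. Lama4, Col6a1, Col6a2 and Col18a1 are on chromosome 10, and Col15a1 and Col16a1 on chromosome 4. From Control to SPOPmut the share of called regions changed by -8.45% on chromosome 10 and -8.01% on chromosome 4. With the chromosome correction Col18a1 did not pass, and the other genes passed (-1.17, -1.68, -1.13, -1.21 and -1.34, in that order). Lama2 rose on chromosome 10, and Col4a1 and Col4a2 on chromosome 8 (-8.83%). Col6a3 fell on chromosome 1 (4.31%). The part of the neighbourhood in any single gene's result was not tested beyond the chromosome correction.

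**Figure D4:**
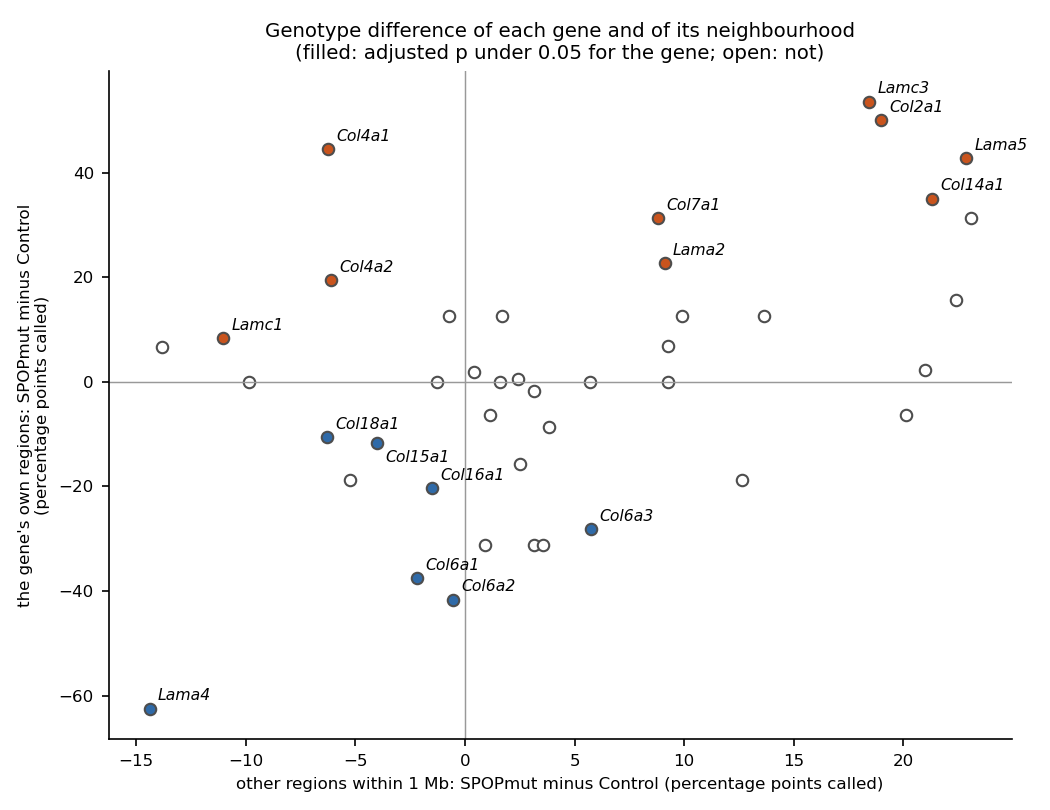
For each of the 42 tested genes, the genotype difference in the percentage of its own regions called (y axis, percentage points) against that of all other regions within 1 Mb (x axis, percentage points). Filled points passed the gene test. Lama5, Lamc3, Col14a1 and Col2a1 lie at the upper right, where neighbours rose too, and Col4a1, Col4a2 and Lamc1 rose where neighbours fell.

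Few members, and few genes in all, were called for DHT in the main test. No member rose with DHT (0 of 42, against 5.42% of all genes) and 1 fell (2.38%, against 3.14%) by the exact permutation test with adjusted p under 0.05. At an unadjusted p under 0.05 the same exact test gave 3 higher and 5 lower (7.14% and 11.9%, against 12.6% and 10.7% of all genes). With limma on square roots of the counts 4 were higher and 5 lower (9.52% and 11.9%, against 13.4% and 12%). The gene that fell was Col4a6, an X-linked collagen IV chain found in smooth muscle and some epithelial basement membranes. Of its 16 regions 14, 14, 15 and 13 were called in Control EtOH, 9, 9, 10 and 12 in Control DHT, 12, 13, 13 and 13 in SPOPmut EtOH and 11, 11, 11 and 12 in SPOPmut DHT. It fell by 2.75 (exact permutation test, adjusted p = 0.0206). The Control groups did not overlap and the SPOPmut groups touched at 12. A region picked after its values were seen, chrX:141424057-141424705, was called in all 8 EtOH libraries, in 1 of 4 Control DHT libraries and in 0 of 4 SPOPmut DHT libraries.

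With DHT, Lama2 and Col6a1 missed the threshold. Lama2 was higher by 2.00 (exact permutation test, adjusted p = 0.0823) and passed with shares, with the chromosome correction and with limma (adjusted p = 0.0251, 0.0185 and 0.00302). Col6a1 was lower by 0.875 with DHT, listed as -0.875 (exact permutation test, adjusted p = 0.0976). It passed with lists of equal length, with shares, with the chromosome correction and with limma (adjusted p = 0.0482, 0.0327, 0.0299 and 0.00995). In the upper 75% of each list Col18a1 and Col28a1 were lower with DHT (-1.75 and -2.5, exact permutation test, adjusted p = 0.0257 and 0.0119). By limma Col18a1 (adjusted p = 0.0343) and Lama4 (0.0343) were lower with DHT and Col7a1 (0.0402) higher. The median DHT difference was -0.125 for members and 0 for all genes. Of the 338 regions 3 were called more often with DHT (0.888%, against 1.51% of all regions) and 0 less often (against 0.259%) by the exact stratified test, with 18 and 13 at an unadjusted p under 0.05 (5.33% and 3.85%, against 6.58% and 4.51%). All 3 were called in the 8 DHT libraries and in no EtOH library, among them chr1:45419606-45420123 in Col5a2 and chr4:47271780-47272528 in Col15a1.

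Counted by overlap, 1 member lay wholly higher in Control DHT than in Control EtOH (2.38%, against 5.17%), Lama5, and 3 wholly lower (7.14%, against 4.44%), Lama4, Col6a1 and Col4a6. In SPOPmut 1 lay wholly higher with DHT (2.38%, against 9.14%), Lama2, and 1 wholly lower (2.38%, against 4.53%), Lamb1. When regions had to be covered to 25% by a peak, the first of these counts was 0, and no share of all genes was counted for that setting.

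**Figure D5:**
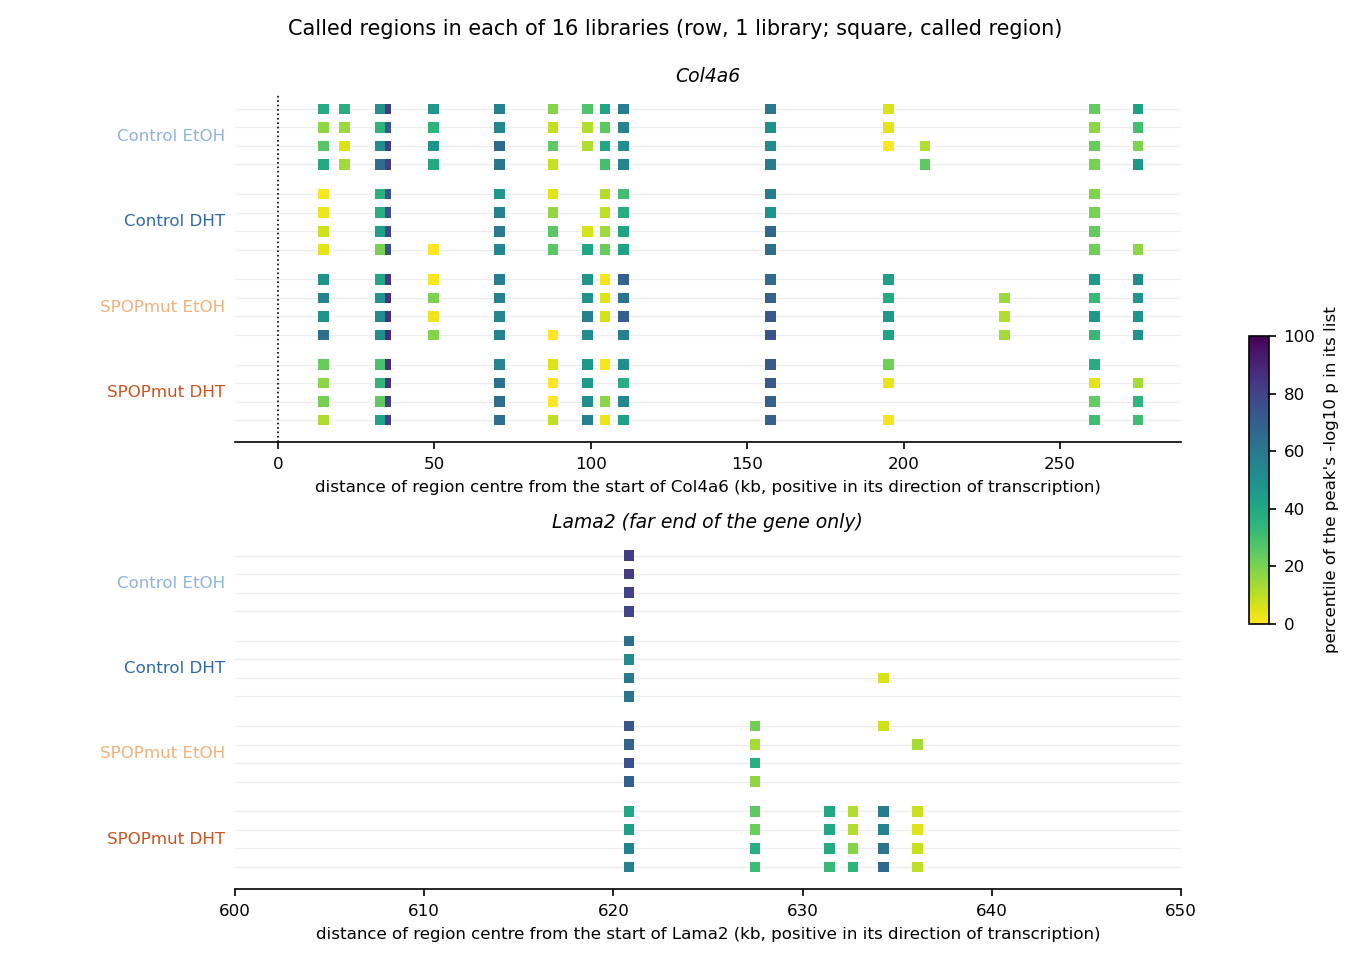
Regions of Col4a6 and of the far end of Lama2 by distance from the gene start (x axis, kb), 1 row per library, drawn as in the map of Lama5. Col4a6 rows with DHT hold fewer squares than those with EtOH in Control, and the Lama2 panel shows a run of regions beyond 625 kb that is complete in the SPOPmut DHT libraries.

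The DHT effect was not called as different between genotypes for any member (0 of 42) or any gene tested (0%), by an exact permutation of treatment labels within genotype, which assumes no DHT effect. At an unadjusted p under 0.05 that test gave 3 members (7.14%) and 799 genes (7.13%), and limma called 1 member, Lama5 (adjusted p = 0.00227). How many of all genes limma called for this difference is not given here, so the call has no share beside it. Lama5 counts did not vary within Control EtOH (5), Control DHT (6) or SPOPmut DHT (10). For Lama5 the DHT effect was 2.25 regions lower in SPOPmut than in Control, listed as -2.25 (exact permutation test, adjusted p = 0.477). It had 1 region more with DHT in Control, chr2:180232903-180233755, called in 4 of 4 Control DHT and 0 of 4 Control EtOH libraries and in all 8 SPOPmut libraries (picked after its values were seen).

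Genes that receive, link, build and cut these proteins were counted the same way. Of all genes tested 19.4% rose and 12.1% fell in SPOPmut, and 5.42% rose and 3.14% fell with DHT. No list was tested as a set. Among receptors, Itga6 (the integrin alpha chain of hemidesmosomes), Itga10 and Bcam (a receptor of laminin alpha 5) rose in SPOPmut and the collagen receptors Ddr1 and Ddr2 fell, 3 and 2 of 12 tested. Among basement membrane partners Fras1 rose and Nid1 (a linker of laminin to collagen IV), Pxdn (which crosslinks collagen IV) and Smoc1 fell, 1 and 3 of 12. For collagen synthesis and crosslinking P3h2 and Loxl4 rose and Adamts2 and Bmp1 fell, 2 and 2 of 15. For matrix proteases and inhibitors Mmp15 rose and Mmp2, Mmp10 and Timp3 fell, 1 and 3 of 10. With DHT, Itga2, Fras1 and Smoc2 rose, and Dag1 and Mmp13 fell. Each list held both directions between genotypes.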

How the data were processed

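ATAC-seq peak lists of 16 libraries in 4 groups of 4 were used. Per the submitters' processing notes, Bowtie2 2.3.4.1, SAMtools 1.8, Genrich and the build mm10 were used, with no parameters given in the sources used here. The authors deposited 1 peak list per library. The −log10 p of each peak and its signal are the authors' values, deposited without read counts, so depth is unknown. No other use was made of them than ordering the peaks of one library: the percentile is a peak's rank by −log10 p, and equal ranks were ordered by signal. Tracks pooled over replicates were not analysed here.

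Peaks sharing 1 bp or more were joined into 86616 regions, and 6264 called in 1 library were left out, 34 of them at members. Each region went to the nearest protein-coding gene body of GRCm38.p6 within 100 kb, by its midpoint. Called regions per gene and library were tested for 11209 genes with at least 2 regions by a two-sided exact permutation test that shuffled one factor inside each level of the other (4900 arrangements, the lowest p being 0.000408). Regions were tested by an exact stratified hypergeometric test. Both were Benjamini-Hochberg adjusted over all genes or regions and tested on simulated data. Alternatives, named in the closing section, included limma 3.58.1 in R 4.3.3. Other work used Python 3.11.15, NumPy 2.4.6, pandas 2.3.3, SciPy 1.17.1 and Matplotlib 3.10.9.

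The members and lists were chosen with earlier results of these data known. Named genes are a fixed set of basement membrane, hemidesmosome and fibrillar chains, every member that passed a test, and the 5 members with the most regions. Named regions are those called in all 8 libraries of one genotype or treatment and none of the other, up to 3 per gene by rank. Regions over the start or promoter of a gene are named too, and the printed promoters were chosen by the behaviours described. Other regions named are marked as picked after their values were seen. A tested member and a marker gene enter all counts but are not reported here by name.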

Additional observations from a re-analysis of the deposited data

Results flagged for a closer look

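A library counted as far from the others of its group when its gap to the nearest one, relative to the range of the 4, exceeded Dixon's 95% critical value for 4 samples. Called regions are small whole numbers, so any group with 3 equal libraries and 1 different one meets this, and 27 of 79 groups with any spread did, 25 of them by a gap of 1 region. Chance flags about 1 in 20 groups of continuous values. The 2 wider gaps were of 2 regions: Col4a1 in Control EtOH replicate 3 (4 called regions against 2) and Lamc3 in SPOPmut DHT replicate 2 (3 against 5).

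Among the gaps of 1 region, the lone library was in Control EtOH for Col14a1 (1 called region), Col15a1 (11), Col1a1 (3), Col4a2 (6), Col4a5 (2), Col6a3 (4), Lama2 (6) and Lamc3 (1). In Control DHT it was Col1a1 (4), Col4a2 (5), Col6a2 (2) and Lamc1 (10). SPOPmut EtOH had it for Col14a1 (3), Col17a1 (16), Col4a6 (12), Col6a2 (2), Col6a3 (2) and Col7a1 (2), and SPOPmut DHT for Col1a1 (2), Col4a6 (12), Col6a1 (1), Col6a3 (3), Lama2 (9), Lamb3 (4) and Lamc1 (10). Replicate 2 of Control EtOH and of SPOPmut DHT, each the lone lowest library for several genes, have the shortest peak lists of their groups, 57245 and 58800 peaks. The part of list length was not tested.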

How the results depend on the processing

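No call reversed under the 27 alternatives, and 5 of 17 gene calls (Lama5, Col4a1, Col4a2, Col6a1 and Col14a1) held under all of them. The counts of members that rose in SPOPmut stayed within 1.5 times of 9, and those that fell were 11 with equal list length, 13 with shares, 11 with the chromosome correction and 11 with limma. Over all genes falls in SPOPmut numbered 1352 in the main test and 1737, 2399, 2809 and 1986 under the same settings. Members that rose with DHT numbered 1 with equal list length, 3 with shares, 3 with the chromosome correction, 4 with limma and 1 with gene bodies and 10 kb either side. Over all genes rises with DHT numbered 607 in the main test and 816, 1340, 1379, 1504 and 584 under the same settings. Members that fell with DHT numbered 3, 4, 5, 5 and 2 under the same 5 settings, 3 in the upper 75% of each list and 2 within 25 kb. Over all genes falls with DHT numbered 352 in the main test and 540, 966, 1015, 1344 and 268 under the same 5 settings. In the upper 75% and within 25 kb they numbered 249 and 255. The number of genes tested can differ by setting. Whether the members moved apart from all genes was not tested. The interaction gave 1 with limma, with no count over all genes beside it. Counts of member regions called more or less often in SPOPmut stayed within 1.5 times of 17 and 11 wherever they were run, but the balance moved to 15 and 15 with equal list length and to 12 and 14 in the upper 75%.

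Counts of members wholly apart between groups also moved. With equal list length they were 4 lower in SPOPmut EtOH than Control EtOH, 3 higher in Control DHT than Control EtOH, and 4 higher and 2 lower in SPOPmut DHT than SPOPmut EtOH. In the upper 75% they were 7 lower in SPOPmut EtOH than Control EtOH, 7 lower in Control DHT than Control EtOH, and 3 higher and 2 lower in SPOPmut DHT than SPOPmut EtOH. Within 25 kb 2 were lower in SPOPmut DHT than SPOPmut EtOH. With gene bodies and 10 kb either side 3 were higher in SPOPmut EtOH than Control EtOH and 2 in Control DHT than Control EtOH, a count that was 0 when a peak had to cover 25% of a region. The members' share of called regions (0.406%, 0.402%, 0.414% and 0.401% in Control EtOH, Control DHT, SPOPmut EtOH and SPOPmut DHT) was 0.403% and 0.389% in the SPOPmut groups with equal list length. In the same order it was 0.395%, 0.373%, 0.388% and 0.369% in the upper 75%, and 0.374%, 0.370%, 0.386% and 0.373% within 25 kb. The cause of these shifts was not tested.

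Leaving out 1 library at a time gave 8 to 11 risers and 6 to 10 fallers in SPOPmut, and 0 to 1 risers and 1 to 2 fallers with DHT. The risers became 1 without Control DHT replicate 4, SPOPmut DHT replicate 1 or SPOPmut DHT replicate 2, and the fallers 2 without Control DHT replicate 3 or SPOPmut EtOH replicate 2. Over all genes 2127 to 2450 rose and 1333 to 1597 fell in SPOPmut. With DHT 580 to 701 of all genes rose and 330 to 516 fell. Members wholly lower in SPOPmut EtOH than Control EtOH numbered 2 to 4 (4 without Control EtOH replicate 4). From Control EtOH to Control DHT 1 to 3 were higher (3 without Control EtOH replicate 3, 2 without Control EtOH replicate 4, Control DHT replicate 2 or Control DHT replicate 4) and 2 to 7 lower (7 without Control EtOH replicate 2). From SPOPmut EtOH to SPOPmut DHT 1 to 4 were higher (2 without SPOPmut EtOH replicate 1, 3 without its replicate 3, 4 without SPOPmut DHT replicate 2) and 1 to 5 lower (5 without SPOPmut EtOH replicate 4, 2 without its replicates 1 or 2 or SPOPmut DHT replicates 3 or 4).

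The labels give no meaning to replicate numbers, and the rule for pairing, a correlation over 0.1 between deviations from the group means in every same-numbered pair, was met by 8 of 16 pairs. Correlations ran from 0.25 to 0.38 for number 2 and from 0.16 to 0.22 for number 3, but from -0.11 to 0.09 for number 1 and from -0.27 to 0.08 for number 4, and in 7 of 16 matches of a library with the 4 of another group the best correlation was with its own number. Number 2 has the shortest peak list in all 4 groups. With the replicate block (labels exchanged between equal numbers) 6 members rose and 1 fell in SPOPmut, and 0 rose and 0 fell with DHT, where no gene of the 11209 passed. With it 10 of the 17 gene calls did not pass, among them those lost under this setting alone: Col4a6 with DHT (adjusted p = 0.149) and Col16a1 and Col6a2 (0.0633 each, exact permutation test). Calls over all genes went from 2175 to 1139 rises and from 1352 to 699 falls. The replicate block allows far fewer arrangements than the main test, so its lowest possible p is higher. After adjustment over all genes a call can fail to pass for that reason alone, and so can every DHT call. The part of this limit in the calls lost with the block was not tested. Depth is unknown, so a region not called in a library may be open there below the calling threshold.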
